A study of Mus musculus with 12 samples.

Results

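The 42 genes described here encode the machinery of DNA replication and cell division, and they were taken by name from the 57180 genes listed for each liver. All 42 were among the 19350 genes that passed the filter on low counts. Liver RNA came from 12 mice, 3 of each sex in the Het group and 3 of each sex in the KO group. Every mouse in these 4 groups lacked Csa (Csa-/-) and had been given AAV9-CSA, a vector that carries a human CSA cDNA under the CBA promoter, into the brain ventricles as a newborn. The KO mice are the CX mice of the study, followed to humane endpoint, and the Het mice (Csa-/- Xpa+/-) are littermates of matched age whose exact ages were not given in the sources used here. The KO genotype is written as Csa-/- Xpa+/+ in the labels and as Csa-/- Xpa-/- where the CX mice are described, so the mice were grouped by the names KO and Het. Xpa, which encodes a damage recognition factor of nucleotide excision repair, stood at 3.25 to 5.41 TPM (a scale corrected for gene length and library size) in the 6 Het livers and at 0.966 to 1.54 TPM in the 6 KO livers (log2 fold change -1.83 ± 0.16 SE, adjusted p = 4.14e-05). The hepatocyte marker Alb, which encodes albumin, averaged 23027 TPM over the 12 livers. The gene counts of a liver summed to between 30044812 and 43634073.

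Cells that divide pass through growth, DNA synthesis and mitosis in a fixed order. D-type and E-type cyclins activate CDK4, CDK6 and CDK2 in the growth phase, the E2F transcription factors are released from the RB family and switch on the genes of DNA synthesis, and the replicative helicase is loaded onto origins by CDC6 and CDT1. Later, cyclin A and cyclin B activate CDK1, and FOXM1 together with the MuvB complex switches on genes for the spindle, its checkpoint and the ubiquitin ligase that ends mitosis. In the young liver hepatocytes still divide, and in the adult liver most are quiescent, while blood-derived and resident immune cells can also carry these transcripts. In bulk tissue, fewer cells of a type and less RNA per cell cannot be told apart.

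The promoters of several members are printed because the letters that mark these programs are visible in them. RefSeq promoter windows (build GRCm38.p6, 250 bases before to 50 after the gene start, 300 bases in all) were matched by symbol for 34 of the 42 members. Short motifs were searched on both strands, namely the cell cycle homology region or CHR (TTTGAA, or with the variant letters TTCGAA), to which the MuvB complex binds, the CCAAT box (CCAAT), to which NF-Y binds, and an E2F site (TTCCCGC or its variants TTCGCGC, then TTGCCGC, then TTGGCGC). The letters of an E2F site and a CCAAT box can overlap, as in GCGCCAAT. Shown here are the 150 bases before the gene start, 5′ to 3′ on the strand of the gene, with motif letters in capitals. The stretches of Cdk1 (chr10:69352913-69353062, minus strand), Cdc20 (chr4:118437344-118437493, minus strand) and Ccnb1, which holds neither of the CHR spellings searched in its window (chr13:100786487-100786636, minus strand) belong to mitosis genes. Those of Rrm1 (chr7:102441545-102441694, plus strand) and Cdk2 (chr10:128705052-128705201, minus strand) belong to genes that act at the growth phase and in DNA synthesis.
Cdk1: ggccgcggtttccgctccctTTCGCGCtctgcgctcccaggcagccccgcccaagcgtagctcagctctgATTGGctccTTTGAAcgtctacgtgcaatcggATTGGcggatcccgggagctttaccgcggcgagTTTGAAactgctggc
Cdc20: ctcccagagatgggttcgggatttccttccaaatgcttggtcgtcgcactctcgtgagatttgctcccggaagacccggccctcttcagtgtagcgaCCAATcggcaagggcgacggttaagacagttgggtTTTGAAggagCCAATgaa
Ccnb1: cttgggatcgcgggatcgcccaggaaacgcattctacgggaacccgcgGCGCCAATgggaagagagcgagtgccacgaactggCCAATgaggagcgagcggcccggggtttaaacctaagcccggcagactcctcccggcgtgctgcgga
Rrm1: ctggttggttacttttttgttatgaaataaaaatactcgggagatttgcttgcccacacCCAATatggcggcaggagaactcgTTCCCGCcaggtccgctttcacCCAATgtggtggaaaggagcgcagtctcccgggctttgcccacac
Cdk2: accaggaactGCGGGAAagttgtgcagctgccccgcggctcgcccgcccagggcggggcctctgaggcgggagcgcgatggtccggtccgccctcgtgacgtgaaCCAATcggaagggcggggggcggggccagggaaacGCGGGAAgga

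A CHR was found in 13 of the 17 matched mitosis members (76.5%) and in 3 of the 13 matched members of DNA replication (23.1%), against 19.4% of all 27025 promoters. CCAAT boxes were found in 26 of the 34 matched members (76.5%), against 37.9% of all promoters. The E2F letters were found in 8 of the 13 replication members (61.5%) and in 3 of the 17 mitosis members (17.6%), against 9.69% of all promoters. Cdk1 held all 3 motifs, with CHR letters that begin 71 and 15 bases before the gene start. Rrm1 and Cdk2 held CCAAT and E2F letters without the CHR letters searched. None of the 3 motifs was found in 6 matched members (17.6%), among them Tyms, Tk1 and Ccne1, against 45.2% of all promoters. These matches describe letters in a window and were not tested as binding sites, and other spellings of the motifs were not searched.

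Cell cycle transcripts were scarce in these livers. The mean over the 12 livers was under 1 TPM for 31 of the 42 members, between 1 and 5 TPM for 8, and over 10 TPM for 3. The 3 most abundant were Ccnd1 (13.0 TPM), which encodes cyclin D1, Tk1 (10.7 TPM), which encodes thymidine kinase, and Pcna (10.7 TPM), which encodes the sliding clamp of DNA polymerases. The 21 mitosis members, which are the cyclins A2, B1 and B2, Cdk1, Mki67, Top2a and the genes for mitotic kinases, checkpoint and spindle proteins, averaged between 0.0416 TPM (Bub1) and 1.35 TPM (Cenpa). In 14 members, 13 of them mitosis members and the other Cdc6, at least 1 liver had under 10 counts, so their fold changes rest on few reads.

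Few of the members differed between KO and Het livers over both sexes. In the model across all genes, 2 of the 42 passed an adjusted p of 0.05 (quasi-likelihood test of edgeR, adjusted by Benjamini-Hochberg over all genes), against 22.4% of all genes tested. Cdt1, the licensing factor that loads the replicative helicase, rose in KO livers, and Cdk2, the kinase partner of cyclins E and A, fell. An unadjusted p under 0.05 was found for 8 members, against 36.1% of all genes. The median log2 fold change of the 42 members was 0.21, against 0.0175 over all genes, and 27 members had a value above 0, against 51.8% of all genes. For no member were all 6 KO livers outside the range of the 6 Het livers, a pattern found for 9.35% of all genes. The 95% interval of the fold change included 0 for 34 members, and for 21 members it lay wholly within a 2-fold change in either direction. For the other 21, a 2-fold change was within the interval, so the data do not show that these genes were alike in KO and Het livers.

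The values of single livers are given in CPM (counts relative to the library total, scaled by the TMM method), the scale of the test, in the order of mouse numbers (Het_F_111, Het_F_115 and Het_F_126, Het_M_119, Het_M_125 and Het_M_137, KO_F_108, KO_F_112 and KO_F_123, KO_M_118, KO_M_122 and KO_M_136, with F for female and M for male). Cdt1, on chromosome 8 (123294703 to 123300293, plus strand, GRCm39), stood at 1.41, 1.30 and 2.25 CPM in Het females, 1.33, 1.46 and 1.38 CPM in Het males, 3.19, 1.39 and 2.20 CPM in KO females, and 3.42, 2.91 and 2.7 CPM in KO males. All KO males lay above all Het males, whereas the females overlapped, with KO_F_112 at the level of the Het livers. Over both sexes the fold change was 1.69 (log2 0.76 ± 0.21 SE, adjusted p = 0.0242, edgeR). The call was lost when any of 6 mice was left out (Het_F_111, Het_F_115, Het_M_119, Het_M_137, KO_F_108 or KO_M_118), with adjusted p up to 0.0616. Cdk2, on chromosome 10 (128533796 to 128540963, minus strand), stood at 10.4, 6.12 and 10.9 CPM in Het females, 8.57, 14 and 9.15 CPM in Het males, 6.88, 5.02 and 6.62 CPM in KO females, and 8.17, 6.73 and 7.51 CPM in KO males. All KO males were below all Het males, and Het_F_115 lay among the KO females. The log2 fold change of Cdk2 was -0.53 ± 0.17 SE (adjusted p = 0.0466), and it was past the threshold in 8 of 23 alternative analyses, of which 2 left out a mouse (Het_F_115 or Het_M_119). Cdk2 overlaps Pmel on the other strand, and in TPM its KO males (2.15 to 2.58) overlapped its Het males (2.44 to 4.11).

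No cyclin was called in edgeR over both sexes. Ccna2, which encodes cyclin A2, stood at 1.18, 0.434 and 0.626 CPM in Het females, 0.567, 0.325 and 0.512 CPM in Het males, 1.05, 1.76 and 1.05 CPM in KO females, and 0.725, 1.78 and 0.551 CPM in KO males. KO_F_112 and KO_M_122 were above every Het liver, and the other 4 KO livers lay within the Het range (log2 fold change 0.89 ± 0.33 SE, adjusted p = 0.0718). Ccna2 was called by DESeq2 (adjusted p = 0.0455) and in edgeR without Het_F_111 (0.0392) or KO_M_136 (0.0494), and its log2 fold change was 0.58 without KO_M_122. Ccne2, one of the E-type cyclins, stood at 1.89, 0.485 and 1.81 CPM in Het females, 1.33, 1.72 and 1.5 CPM in Het males, 4.18, 2.35 and 1.21 CPM in KO females, and 1.56, 2.33 and 2.09 CPM in KO males (log2 0.61 ± 0.33 SE, adjusted p = 0.207). Its highest value was in KO_F_108, without which the log2 fold change was 0.34, and its lowest in Het_F_115. Ccne1, the other E-type cyclin, stood at 0.535, 0.408 and 0.626 CPM in Het females, 0.867, 1.01 and 1.25 CPM in Het males, 1.15, 0.805 and 1.45 CPM in KO females, and 1.06, 0.991 and 0.551 CPM in KO males (log2 0.40 ± 0.22 SE, adjusted p = 0.211). All 3 KO females were above all 3 Het females, and KO_M_136 was below every Het male. The remaining cyclins, Ccnb1 and Ccnb2, had log2 fold changes of 0.63 ± 0.52 SE and -0.11 ± 0.46 SE. Cdk1, the mitotic kinase, stood at 0.873, 0.714 and 0.756 CPM in Het females, 0.968, 0.683 and 0.608 CPM in Het males, 0.403, 1.21 and 0.912 CPM in KO females, and 0.793, 1.87 and 0.551 CPM in KO males. Its log2 fold change was 0.29 ± 0.31 SE (adjusted p = 0.545) and lost its sign without KO_M_122 (-0.02).

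Of the 9 genes for replication licensing and the helicase, Cdt1 alone was called, and 5 had fold changes above 0. Mcm2, a helicase subunit, stood at 2.85, 2.04 and 3.5 CPM in Het females, 2.90, 2.44 and 2.62 CPM in Het males, 3.01, 3.07 and 2.87 CPM in KO females, and 4.35, 4.37 and 2.99 CPM in KO males (log2 0.32 ± 0.16 SE, adjusted p = 0.177). KO_M_118 and KO_M_122 were the highest livers. The other helicase subunits, Mcm3 to Mcm7, ranged from -0.14 (Mcm4) to 0.41 (Mcm6), and Mcm7, from which the overlapping microRNA genes Mir106b, Mir93 and Mir25 are also transcribed, was at 0.03 ± 0.13 SE. Cdc45, a helicase cofactor, was at -0.10 ± 0.23 SE, and Cdc6, the loading partner of CDT1, at 0.44 ± 0.31 SE.

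None of the 5 genes for DNA synthesis and nucleotide supply passed the threshold in edgeR over both sexes, with 2 at an unadjusted p under 0.05 (Tyms and Tk1). DESeq2 called both of these, and limma called neither. Tyms, which encodes thymidylate synthase, stood at 5.30, 5.31 and 5.51 CPM in Het females, 5.10, 4.59 and 4.73 CPM in Het males, 2.67, 2.79 and 4.26 CPM in KO females, and 4.64, 5.13 and 3.66 CPM in KO males (log2 -0.41 ± 0.14 SE, adjusted p = 0.0609). The Het livers lay close together, KO_F_108 and KO_F_112 were lowest, and Tyms was called without KO_F_123 (adjusted p = 0.0138). Tk1, which salvages thymidine, stood at 17.5, 8.44 and 43.5 CPM in Het females, 17.4, 27.8 and 22.7 CPM in Het males, 5.49, 12.1 and 8.34 CPM in KO females, and 15.4, 12.4 and 21.3 CPM in KO males. The log2 fold change of Tk1 was -0.94 ± 0.36 SE (adjusted p = 0.0854), and it was -0.54 without Het_F_126, the highest liver, and called without Het_F_115 (adjusted p = 0.0175). Pcna was the steadiest member, at 20.9, 21.2 and 19.6 CPM in Het females, 18.4, 18.6 and 17.2 CPM in Het males, 22.3, 18.4 and 19.1 CPM in KO females, and 19.2, 21.7 and 16.2 CPM in KO males. Its log2 fold change of 0.02 ± 0.09 SE had the smallest standard error of the 42 members, with a 95% interval from -0.18 to 0.22, and its sign turned when any of 4 mice was left out. Rrm2, the regulated subunit of ribonucleotide reductase, was at -0.09 ± 0.50 SE.

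No mitosis member was called over both sexes in edgeR, with 3 of 21 at an unadjusted p under 0.05 (Ccna2, Cdc20 and Kif20a), DESeq2 calling 1 (Ccna2) and limma calling 0. Cdc20, which activates the ubiquitin ligase at the end of mitosis, stood at 0.310, 0.153 and 0.259 CPM in Het females, 0.267, 0.195 and 0.224 CPM in Het males, 0.124, 0.402 and 0.643 CPM in KO females, and 0.725, 1.08 and 0.145 CPM in KO males (log2 0.96 ± 0.41 SE, adjusted p = 0.116). The 6 Het livers were close together, and the KO livers spread to both sides of them. Without KO_M_136, Cdc20 was called (adjusted p = 0.0327). Kif20a, a spindle motor of cytokinesis, stood at 1.01, 0.638 and 0.562 CPM in Het females, 0.934, 0.618 and 0.896 CPM in Het males, 0.713, 0.960 and 1.18 CPM in KO females, and 1.34, 1.49 and 0.958 CPM in KO males (log2 0.48 ± 0.22 SE, adjusted p = 0.132). Mki67, which encodes the proliferation marker Ki-67, stood at 5.38, 2.02 and 3.41 CPM in Het females, 3.07, 1.17 and 2.91 CPM in Het males, 1.92, 2.60 and 5.82 CPM in KO females, and 4.66, 8.69 and 2.35 CPM in KO males (log2 0.53 ± 0.39 SE, adjusted p = 0.363). Its highest liver was KO_M_122, and each group of 3 spanned more than a 2-fold range. The log2 fold change of Mki67 was 0.22 without KO_F_123 and 0.25 without KO_M_122. Top2a, the topoisomerase of dividing cells, stood at 3.04, 1.2 and 1.79 CPM in Het females, 1.90, 0.651 and 1.28 CPM in Het males, 0.589, 0.712 and 2.90 CPM in KO females, and 2.15, 4.05 and 1.07 CPM in KO males. The log2 fold change of Top2a was 0.21 ± 0.45 SE (adjusted p = 0.781), and it was -0.33 without KO_F_123 and -0.07 without KO_M_122. The other 16 mitosis members had log2 fold changes between -0.33 (Cenpa) and 0.69 (Plk1).

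**Figure D1:**
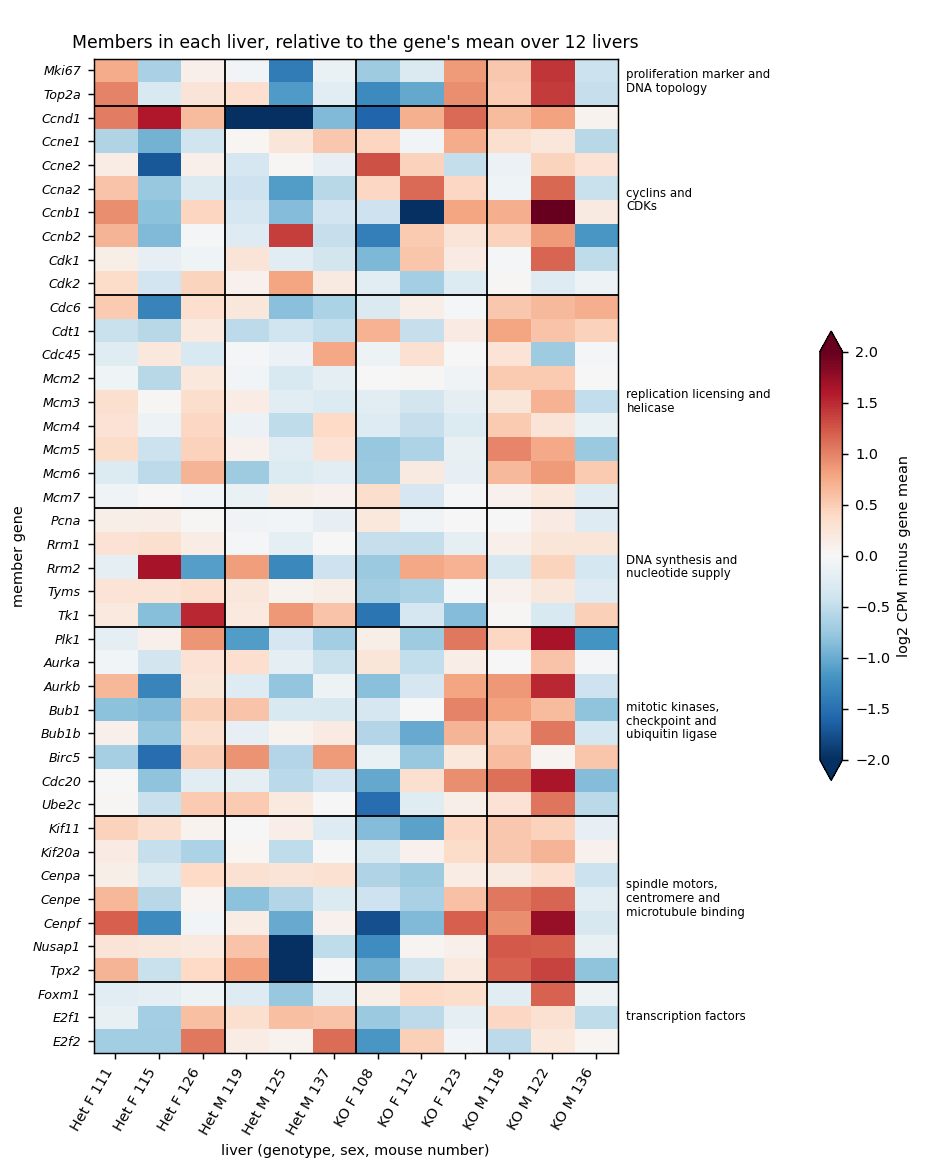
Heat map of the 42 members (rows, grouped by role) in the 12 livers (columns, grouped by genotype and sex), coloured by log2 CPM minus the mean of the gene over all livers, on a scale that ends at -2 and 2. KO_M_122 was the darkest red column in the mitotic blocks, and KO_M_136 beside it was mostly pale or blue.

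Of the 3 transcription factors, Foxm1 stood at 1.07, 1.1 and 1.17 CPM in Het females, 1.03, 0.716 and 1.09 CPM in Het males, 1.36, 1.67 and 1.61 CPM in KO females, and 1.06, 2.91 and 1.16 CPM in KO males (log2 0.63 ± 0.25 SE, adjusted p = 0.0872). All KO females were above all Het females, the male groups overlapped, and the log2 fold change was 0.34 without KO_M_122. E2f1, an activator of DNA synthesis genes, stood at 2.08, 1.43 and 3.54 CPM in Het females, 2.90, 3.55 and 3.49 CPM in Het males, 1.36, 1.61 and 2.04 CPM in KO females, and 3.10, 2.89 and 1.62 CPM in KO males (log2 -0.43 ± 0.23 SE, adjusted p = 0.210), and without Het_F_126 the value was -0.23. E2f2 was at -0.43 ± 0.38 SE.

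Within females few members passed the threshold, and those called, Rrm1 and Tyms, fell in KO livers. Ccne1, which was higher in KO females, lay just outside the threshold (log2 1.04 ± 0.31 SE, adjusted p = 0.0534, edgeR). KO_F_108 stood apart in this group, since the chi-square of its counts over genes, divided by the degrees of freedom, was 207 and 226 against the other KO females, which differed from each other by 125.4. Without it 0 members were called in edgeR, 4 had an unadjusted p under 0.05, and 22 of 42 were below 0. In the females 2 of the 42 members were called (Rrm1 and Tyms, both lower in KO), against 11.0% of all genes, and 5 had an unadjusted p under 0.05, against 29.0%. Rrm1 encodes the large subunit of ribonucleotide reductase and lies on chromosome 7 (102090890 to 102119709, plus strand). It stood at 8.62, 8.88 and 7.82 CPM in Het females and at 5.11, 5.05 and 6.22 CPM in KO females. The groups did not overlap, and the log2 fold change was -0.62 ± 0.14 SE (adjusted p = 0.0209, edgeR), with a fold of 0.650. The call was lost without Het_F_111, Het_F_115, KO_F_108 or KO_F_112, with adjusted p up to 0.0641 over the 23 alternatives. Tyms fell by 0.72 on the log2 scale in females (SE 0.21, adjusted p = 0.0450), and its CPM values, given above, did not overlap. In TPM, KO_F_123 stood at 4.27, within the 4.26 to 4.61 of the Het females, and the call was kept in 9 of 23 alternatives, and it was lost when any 1 of 9 mice was left out (all but KO_F_123, KO_M_122 and KO_M_136). All 5 members of DNA synthesis had fitted values below 0 in females, from -0.04 (Pcna) to -1.41 (Tk1). Over all members, 28 of 42 had a value below 0 in females, against 49.6% of all genes, and the median was -0.13. Groups that did not overlap were found for 7 members in females, with KO below Het for Rrm1, Tyms, Mcm3, Mcm4 and Nusap1 and above for Ccne1 and Foxm1, against 30.4% of all genes.

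Within males the fitted values of most members were above 0, with few past the threshold. In males 1 of the 42 members was called, against 7.45% of all genes, and 10 had an unadjusted p under 0.05, against 24.1%. The called gene was Cdt1, at a log2 fold change of 1.09 ± 0.30 SE (adjusted p = 0.0495, edgeR) and a fold of 2.12, and it was past the threshold in 7 of 23 alternatives and lost without any 1 of 9 mice (all but Het_F_126, KO_F_108 and KO_F_112). Mcm6 (1.07 ± 0.32 SE, adjusted p = 0.0650) and Ccnd1 (2.10 ± 0.61 SE, adjusted p = 0.0690) lay just outside it. Over all members, 30 of 42 had a value above 0, against 51.7% of all genes, and the median was 0.41. Among the 21 mitosis members 18 were above 0 with a median of 0.87, though none was called in edgeR (4 at an unadjusted p under 0.05), in DESeq2 or in limma. Without KO_M_122 the median of the mitosis members was 0.41 and 17 stayed above 0, and without KO_M_136 it was 1.24. On log2(TPM + 1) and log2(TPM + 0.1) with limma this median was 0.08 and 0.35. Adding 1 or 0.1 TPM draws the fold changes of genes this scarce (0.0416 to 1.35 TPM) towards 0. These medians are therefore not directly comparable with 0.87. Groups that did not overlap were found for 10 members in males (Cdt1, Kif20a, Mcm2, Mcm6, Cenpe, Rrm1, Ccnd1, Cdc6 and Ccnb1 with KO above, Cdk2 with KO below), against 32.1% of all genes.

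**Figure D2:**
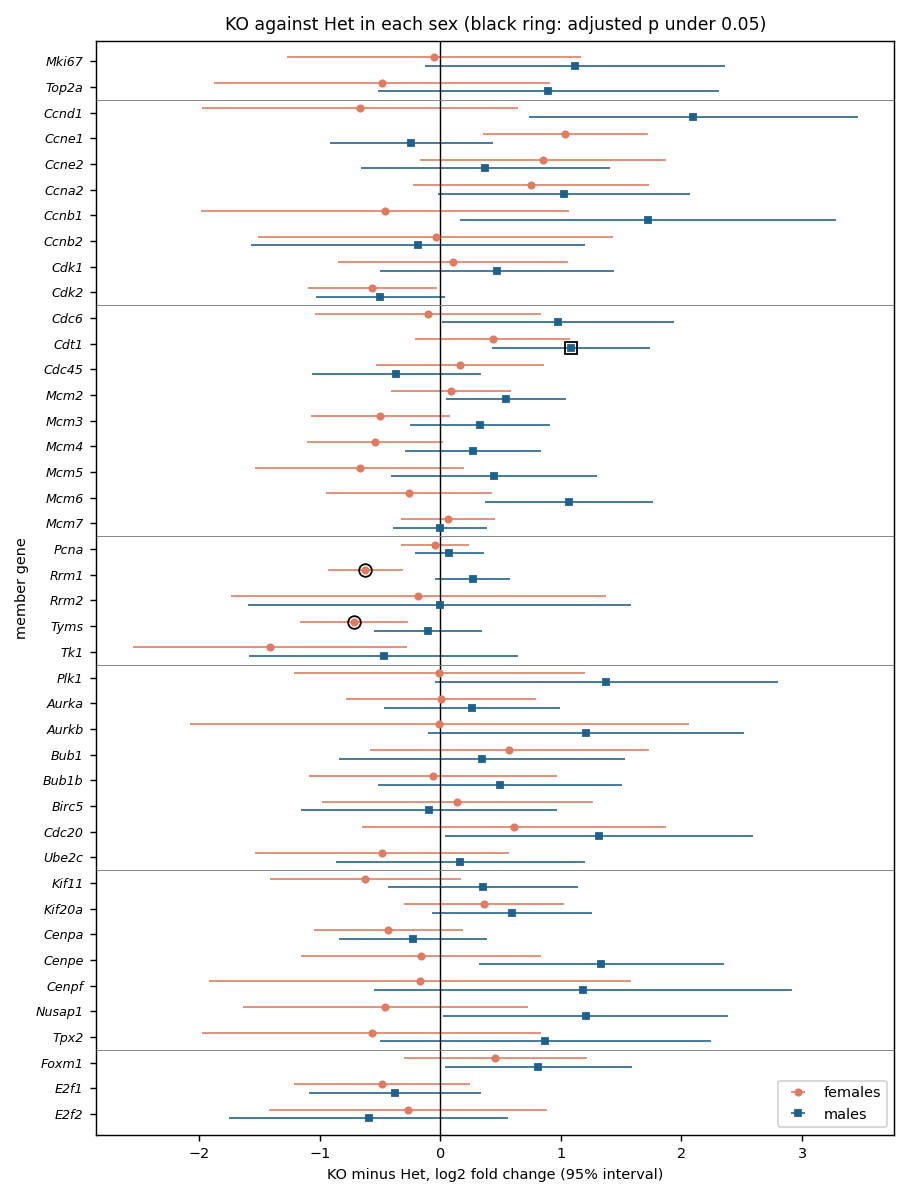
Log2 fold change of KO against Het (x axis) with its 95% interval for each of the 42 members (y axis, grouped by role), in females (circles) and males (squares), with black rings on values past an adjusted p of 0.05. Rrm1 and Tyms in females and Cdt1 in males carry rings, and 30 squares and 14 circles lie above 0.

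Whether the KO effect differed between the sexes was tested by the interaction of genotype and sex, the effect in males minus that in females. The adjusted p passed the threshold for 0 of the 42 members in edgeR, against 0.0465% of all genes, with 7 at an unadjusted p under 0.05 (Rrm1, Ccnd1, Mcm6, Ccne1, Cenpe, Mcm4 and Mcm3), against 9.28% of all genes. DESeq2 called 2 members (Ccnd1 and Rrm1) and limma called 0. The fitted interaction was above 0 for 34 of the 42 members, against 51.6% of all genes. These members share the same 12 livers and are not independent. Rrm1 had the smallest p, and its values were chosen for description after they were seen. In males it stood at 6.94, 6.25 and 7.04 CPM in Het and at 7.59, 8.42 and 8.39 CPM in KO livers, so every KO male lay above every Het male, opposite to the females, though the male difference was not called (log2 0.27 ± 0.14 SE, adjusted p = 0.278). Its interaction was 0.89 ± 0.20 SE on the log2 scale (adjusted p = 0.221), with a 95% interval from 0.45 to 1.33. KO livers outside the Het range in opposite directions in the sexes were found for 0.568% of all genes.

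Ccnd1 had the largest interaction of the 42 members, at 2.77 ± 0.85 SE (adjusted p = 0.426, 95% interval 0.88 to 4.65). It encodes cyclin D1, the D-type cyclin that couples mitogen signals to the cell cycle, and it lies on chromosome 7 (144483668 to 144493662, minus strand). Het females stood at 93.0, 139 and 70.4 CPM and Het males at 11.4, 10.1 and 24.7 CPM, so the Het groups did not overlap. KO females stood at 15.1, 74.7 and 100.2 CPM and KO males at 70.4, 79.9 and 48.0 CPM. KO_F_108 was at the level of the Het males, and every other KO liver lay above them. Over both sexes the log2 fold change of Ccnd1 was 0.72 ± 0.42 SE (adjusted p = 0.248). It was 0.94 without KO_F_108, where Ccnd1 was called (adjusted p = 0.0410), and 0.46 without KO_F_123. Mcm6, a helicase subunit, stood at 3.47, 2.91 and 6.78 CPM in Het females, 2.54, 3.48 and 3.58 CPM in Het males, 2.48, 4.77 and 3.75 CPM in KO females, and 6.63, 7.64 and 6.06 CPM in KO males (interaction 1.33 ± 0.45 SE, adjusted p = 0.442). All KO males were above all Het males, and the females overlapped, with an interaction of 0.88 without Het_F_126. For Ccne1 the interaction had the other sign, at -1.28 ± 0.44 SE (adjusted p = 0.450).

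**Figure D3:**
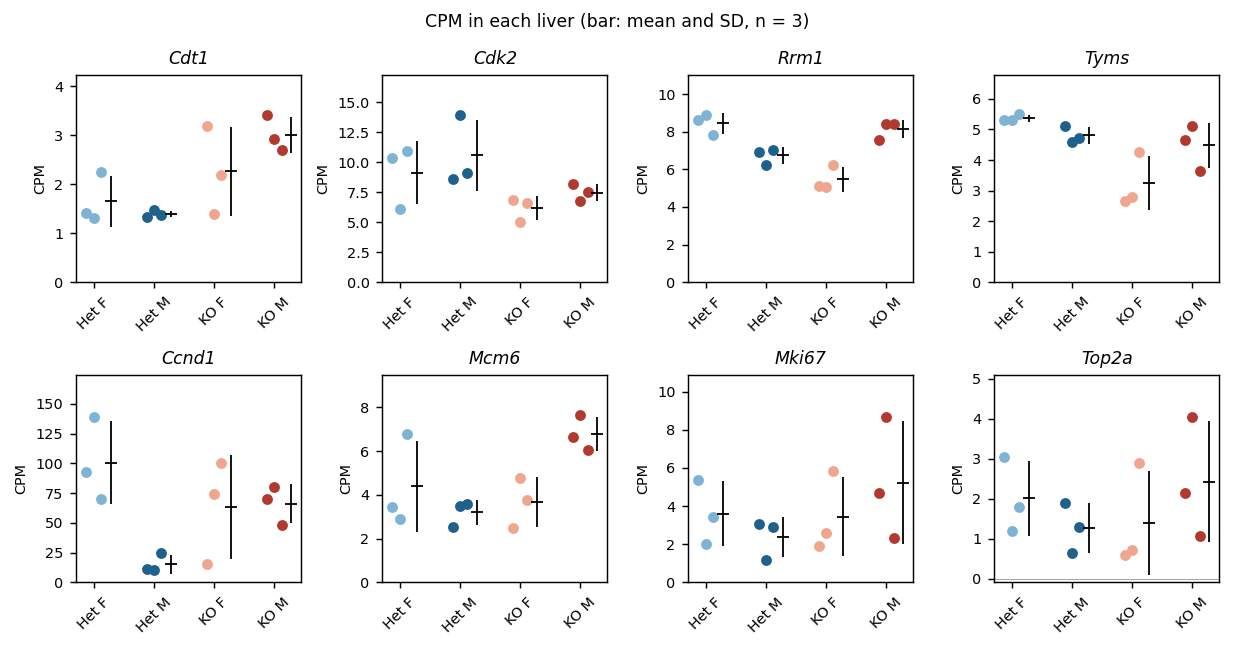
CPM of 8 members in each liver (y axes, linear and starting at or below 0), by group (x axes), with points for livers and bars for the mean ± SD of 3 mice. Rrm1 shows KO females below Het females and KO males above Het males, and Ccnd1 shows Het males lowest, at 10.1 to 24.7 CPM.

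Between males and females, averaged over the genotypes, 0 of the 42 members passed the threshold in edgeR, against 1.02% of all genes, with 2 at an unadjusted p under 0.05 (Ccnd1 and E2f1), against 13.8%. DESeq2 called 1 (Ccnd1) and limma called 0. The fitted value of Ccnd1 for males against females was below 0 (log2 -1.32 ± 0.42 SE, adjusted p = 0.205), and E2f1 was at 0.53 ± 0.23 SE (adjusted p = 0.339).

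The levels of the mitosis members differed between livers of the same group, and whether they varied together was not tested. KO_M_122 had the highest CPM of 19 of the 42 members (45.2%) and of 15 of the 21 mitosis members (71.4%), whereas it was highest for 6.96% of all genes. KO_F_108 had the lowest CPM of 12 members (28.6%), and it was lowest for 18.3% and highest for 18.2% of all genes. The summed TPM of the mitosis members was 6.21, 3.48 and 5.95 in Het females, 4.88, 3.95 and 4.42 in Het males, 3.10, 3.57 and 6.83 in KO females, and 6.13, 9.37 and 3.35 in KO males. The highest value, in KO_M_122, and the value of KO_M_136 differed by more than the range of all 6 Het livers. For the 14 members of DNA replication the summed TPM was 40.7, 37.5 and 57.8 in Het females, 33.6, 37.5 and 37.9 in Het males, 33.2, 28.2 and 33.8 in KO females, and 38.4, 37.9 and 37.4 in KO males. All KO females were below all Het females in this sum, and the Het males (33.6 to 37.9) and KO males (37.4 to 38.4) overlapped. The sum is led by Tk1 and Pcna.

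Sums of immune cell markers were set beside those of the mitosis members. The 15 Kupffer cell and macrophage markers summed to 195, 242 and 260 TPM in Het females, 94.5 to 127 TPM in the 3 Het males, 227, 222 and 369 TPM in KO females, and 203, 334 and 129 TPM in KO males. KO_F_123 and KO_M_122 were the highest of their groups in this sum and in that of the mitosis members. The other KO livers did not follow the same order, since KO_M_118, with a mitosis sum of 6.13 TPM, was below KO_F_108 and KO_F_112 in macrophage markers. The 12 markers of T and NK cells summed to 3.26, 2.53 and 5.30 TPM in Het females, 1.60, 1.60 and 2.55 TPM in Het males, 1.06, 1.18 and 3.08 TPM in KO females, and 2.13, 4.35 and 1.67 TPM in KO males. The 6 KO livers stood in nearly the same order in this sum as in that of the mitosis members, with KO_M_122, KO_F_123 and KO_M_118 highest in both. The same KO livers were also the highest KO livers in cholangiocyte markers, at 22.6, 30.5 and 27.3 TPM. Het_F_126 had the highest T and NK sum of all livers, but its mitosis sum (5.95 TPM) was below those of these KO livers. Over both sexes 22.4% of all genes were called, the share to set beside the counts that follow. Of the macrophage markers 8 of 15 rose in KO livers over both sexes and 0 fell (53.3%). The genes called were C1qa, C1qb, C1qc, Cd5l, Cd68, Vsig4, Gpnmb and Trem2. The part of these cell types in the result was not tested. Of the 17 markers of neutrophils and their precursors, 9 were tested and 5 rose (55.6% of those tested, Prtn3, Lcn2, Mmp9, S100a8 and Mmp8). The sum of this list was 3.92 to 29.0 TPM in Het livers and 96.0 to 213 TPM in KO livers and was led by Lcn2, which hepatocytes also make, while the precursor gene Mpo was at 0 to 2 counts in every liver. Of the markers for T and NK cells 1 of 12 fell (Ncr1, 8.33%). Of those for B and plasma cells 0 of 10 were called in edgeR (0 at an unadjusted p under 0.05), and of those for cholangiocytes 0 of 8 (0 at an unadjusted p under 0.05). Among erythroid markers 2 of 10 fell (Alas2 and Car1), among those of megakaryocytes and stem cells Pf4 rose and Kit fell out of 6, among those of sinusoidal endothelium 5 of 10 fell (Fcgr2b, Kdr, Clec4g, Oit3 and Stab1) and among those of stellate cells and fibroblasts 2 of 11 fell (Reln and Lrat). Of 10 hepatocyte markers Fgb rose and Ttr and Cyp2e1 fell. None of these lists was tested as a source of the members' transcripts.

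**Figure D4:**
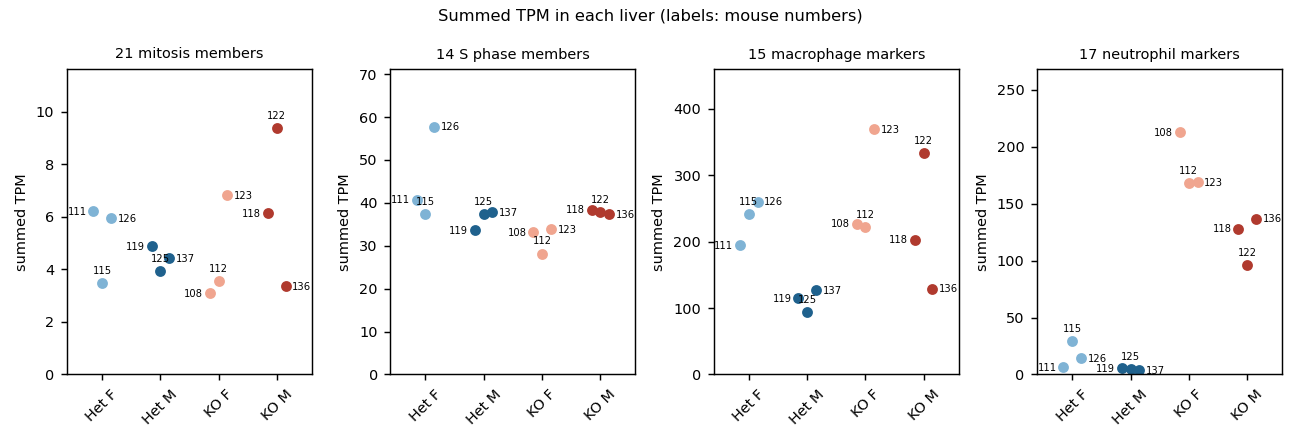
Summed TPM (y axes, linear from 0) of the 21 mitosis members, the 14 members of DNA replication, the 15 macrophage markers and the 17 neutrophil markers in each liver, by group (x axes), with mouse numbers beside the points. KO_M_122 and KO_F_123 were the highest livers of the mitosis members, at 9.37 and 6.83 TPM, and of the macrophage markers, at 334 and 369 TPM.

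Other genes of the cell cycle were described from 6 lists of 141 genes, of which 135 were tested. Over both sexes 23 of these were called, 12 higher and 11 lower in KO livers (17% of those tested, against 22.4% of all genes), with a median log2 fold change of 0.08. Among 28 further replication genes 1 rose and 4 fell (17.9%, against 22.4% of all genes). The histone chaperone gene Chaf1a rose (1.16 ± 0.24 SE, adjusted p = 0.00664), and the origin firing factor Mcm10 fell (-1.74 ± 0.43 SE, adjusted p = 0.0181). Among 42 further mitosis genes 0 rose and 2 fell (4.76%), with 7 at an unadjusted p under 0.05, against 36.1% of all genes. Those that fell were Pttg1, which encodes securin (-0.54 ± 0.12 SE, adjusted p = 0.0102), and the kinetochore gene Spc25 (-1.42 ± 0.37 SE, adjusted p = 0.0180).

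Of 15 CDK inhibitor and quiescence genes 3 rose and 0 fell (20.0%, against 22.4% of all genes). Cdkn2c, which encodes the CDK4 and CDK6 inhibitor p18, rose by 1.11 ± 0.14 SE (adjusted p = 0.000385), from 1.97 to 4.26 CPM over the Het livers to 4.76 to 7.32 CPM over the KO livers. Ccng2, an unconventional cyclin of quiescent cells, rose by 0.86 ± 0.20 SE (adjusted p = 0.0114), and Cdkn1c, which encodes p57, rose by 0.87 ± 0.23 SE (adjusted p = 0.0193). Cdkn1a, which encodes p21, was not called (1.54 ± 0.89 SE, adjusted p = 0.245). It stood at 4.76, 108.2 and 2.12 CPM in Het females, 1.94, 1.11 and 0.288 CPM in Het males, 50.1, 45 and 35.1 CPM in KO females, and 3.42, 17.1 and 5.48 CPM in KO males. Every KO male was above every Het male, and Het_F_115 held the highest level of all livers.

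Of 21 RB, E2F and DREAM regulators 1 rose and 2 fell (14.3%, against 22.4% of all genes). The chromatin subunit Rbbp4 (-0.72 ± 0.09 SE, adjusted p = 0.000512) and the repressor E2f8 (-1.89 ± 0.49 SE, adjusted p = 0.0205) fell, and Rbl1, which encodes the pocket protein p107, rose (0.73 ± 0.22 SE, adjusted p = 0.0306). Of 9 G1 cyclin and kinase genes 22.2% were called. The D-type cyclin gene Ccnd3 rose (0.86 ± 0.15 SE, adjusted p = 0.00212) and Ccnd2 fell (-0.80 ± 0.17 SE, adjusted p = 0.00663). Of 20 mitogen and immediate early genes 6 rose and 2 fell (40.0%). The growth factor gene Hbegf rose by 2.32 ± 0.37 SE (adjusted p = 0.00184) and the immediate early gene Ier3 by 1.37 ± 0.35 SE (adjusted p = 0.0169), and the matricellular gene Ccn1 fell (-1.08 ± 0.26 SE, adjusted p = 0.0127). The hepatocyte growth factor gene Hgf also fell (-0.53 ± 0.18 SE, adjusted p = 0.0493).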

How the data were processed

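The authors made stranded total RNA libraries after ribosomal depletion, aligned reads to GRCm39 with STAR 2.7.9a and quantified GENCODE M34 genes with Salmon 1.10.1. The deposited tables hold estimated counts and TPM per gene and liver. Estimated counts were rounded (12.0% of values were not whole), scaled by TMM (factors 0.885 to 1.06) and kept for genes with at least 5 reads, at the median library total, in at least 3 livers. Genotype was compared over both sexes, within each sex and as an interaction with sex, in 1 model of 4 group means with edgeR 4.0.16 in R 4.3.3 (robust quasi-likelihood test, prior count 2, Benjamini-Hochberg adjustment over 19350 genes). DESeq2 1.42.0 and limma 3.58.1 on log2(TPM + 1) or log2(TPM + 0.1) were alternatives. Fold changes are on the log2 scale, intervals cover 95%, and a gene was called at an adjusted p under 0.05. Each edgeR p-value judges a difference between groups against the spread between mice, estimated over all 12 livers and partly pooled across genes. The members and all lists were chosen with earlier results of these data known. Values per liver are given for the 12 members with the smallest p over both sexes, for Mki67, Top2a, Ccnd1, Cdk1, Pcna and Cdkn1a, and for the members that the sex comparison turned on (Rrm1 and Mcm6), which were chosen after their values were seen. Up to 3 called genes with the smallest p were named per pathway list, Hgf was added after its value was seen, and the called genes were named per cell type list. From the replication list, 1 of the 3 genes that this rule picked is not reported here. The edgeR tests over both sexes, in females and for the interaction were checked on counts simulated independently for each gene and liver. The male and sex comparisons, DESeq2 and limma were not checked in this way. Gene positions are GRCm39 and promoters are from RefSeq GRCm38.p6, and none was converted between builds. Libraries of a group differed by more than counting noise (chi-square per degree of freedom 86.8 to 226).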

Additional observations from a re-analysis of the deposited data

Results flagged for a closer look

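For Rrm1, every KO female lay below every Het female and every KO male above every Het male, but the difference was called in females alone (adjusted p = 0.0209, against 0.278 in males). The interaction was 0.89 on the log2 scale (SE 0.20, adjusted p = 0.221 by edgeR, past the threshold in 1 of 23 alternatives, DESeq2). The groups of 3 mice were too small for an outlier test of single livers, and none was run. The chi-square values given above for KO_F_108 are a description.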

How the results depend on the processing

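Directions held better than calls. Over both sexes, 2 members were called in the analysis reported. The count was 1 with length-scaled counts, with library size alone, without a filter and with limma at either pseudocount, 5 with DESeq2, and 0 to 3 when 1 mouse was left out (0 without Het_M_137 or KO_M_118). In females (2 called), it was 1 with length-scaled counts, without a filter, with the older quasi-likelihood method and with limma on log2(TPM + 1), 0 with limma on log2(TPM + 0.1), 4 with DESeq2, and 0 to 3 when 1 mouse was left out. In males (1 called), it was 0 with unrounded counts, with library size alone, without a filter, with the older method and with limma at either pseudocount, 3 with DESeq2, and 0 to 3 when 1 mouse was left out. DESeq2 called 2 members for the interaction (0 reported) and 1 for sex (0 reported), and the latter count was 0 to 1 when 1 mouse was left out (1 without KO_F_108). Leaving out 1 mouse moved Cdk1 between -0.018 and 0.43, Pcna between -0.040 and 0.059 and Top2a between -0.33 and 0.40 on the log2 scale. The median of all members was 0.03 without KO_F_123 and 0.36 without KO_M_136. With at least 10 reads required in every liver, 18 members were lower in KO females (28 reported) and 7 mitosis members were higher in KO males (18 reported). These counts have smaller totals, because the 14 members with under 10 counts in some liver, most of them mitosis members, were not tested in this setting. The other causes were not tested. No paired analysis was made, because the sources used here do not give the litter of each mouse, and litter is not in the model. Low counts and 3 mice per group limit precision, and genotype cannot be told apart from the state of KO mice at humane endpoint.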
